A study of Homo sapiens with 6 samples.

Results

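The nuclear lamina and the inner envelope were followed through 10 genes, chosen by name: the lamin genes LMNA, LMNB1 and LMNB2, and the genes of the membrane and chromatin proteins that anchor to them, LBR, EMD, TMPO, SUN1, SUN2, LEMD3 and BANF1. They are 10 of the 33365 genes to which the deposited transcript values were summed. All 10 passed the filter for low counts, which left 14074 genes to test. The cells were K562, an established human erythroleukaemia line, and transcript abundance was estimated by RNA sequencing in 6 libraries. The series set out to compare cells depleted of CDAN1, a gene mutated in a congenital dyserythropoietic anaemia, with controls.

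Clones c1 and c2 carried a doxycycline-inducible short hairpin RNA (shRNA) against CDAN1, and a further clone carried a non-targeting hairpin (NT). All cultures, controls included, were kept under 2 µg/ml puromycin and harvested at day 4. The induced culture of each clone received 1 µg/ml doxycycline and the uninduced culture received none. This gave 2 libraries of induced CDAN1 shRNA clones, 2 of the same clones uninduced, 1 of induced NT cells and 1 of uninduced NT cells. Each line is 1 clone sampled by 1 culture per state, so a p-value reflects only how far these libraries spread, and clone and hairpin cannot be told apart between NT and a single CDAN1 clone. The clone called c2 in the sample titles is C3 in the names of its deposited files.

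Lamins are intermediate filament proteins that line the inner face of the nuclear envelope. B-type lamins stay attached to the membrane through a farnesyl anchor, while lamin A is processed to a soluble mature form and lamin C never carries the anchor. The lamin B receptor, the LEM-domain proteins and the SUN proteins hold chromatin and the cytoskeleton to this layer, and red cell precursors remodel it heavily before they expel their nucleus. In CDAN1-related anaemia, the erythroblasts are known for spongy heterochromatin and widened nuclear pores on electron micrographs.

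The libraries held 28318555 to 32352246 estimated reads, of which 4.03% to 5.72% were mitochondrial. All 11 erythroid markers looked at were above 1 TPM, and their summed level lay between 29663.75 and 44605.27 TPM (a level scaled for transcript length and library total). The fibroblast list summed to 1.24 to 6.04 TPM and the lymphoid list to 0.67 to 2.15 TPM. Of 6 myeloid markers 3 were above 1 TPM in some library, with LYZ at 57.0 to 84.6 TPM and ELANE at 0 in all 6, and the list summed to 64.84 to 114.74 TPM. All 6 megakaryocyte markers were above 1 TPM in some library, ITGA2B at up to 72.5 TPM, and their sum differed between clones. It was 7.05 TPM in induced c1, 97.59 in induced c2 and 20.29 in induced NT, against 9.10 in uninduced c1, 111.41 in uninduced c2 and 23.83 in uninduced NT. The erythroid sum was lowest in the c2 pair, at 33214.42 TPM induced and 29663.75 uninduced. CDAN1 was at 16.96 CPM (reads relative to the library total) in induced c1 and 29.76 in induced c2, against 37.02 in uninduced c1, 55.42 in uninduced c2, 70.18 in induced NT and 62.48 in uninduced NT. Both induced CDAN1 shRNA libraries were thus below all 4 controls, and the uninduced CDAN1 clones were already below both NT libraries.

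Among the lamins, LMNB2 was the only gene with a call after induction. Its level was higher in the induced than in the uninduced library of each of the 3 clones, NT included. LMNA and LMNB1 showed no shared direction. Lamin B2 is one of the pair of B-type lamins and lamin B1, encoded by LMNB1, is the other.

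LMNB2 (ENSG00000176619, chromosome 19, 2427638 to 2456996, minus strand, GRCh38) stood at 206.6 CPM in induced c1, 244.7 in induced c2 and 190.7 in induced NT, against 138.9 in uninduced c1, 182.3 in uninduced c2 and 115.2 in uninduced NT. Every induced library was above every uninduced one, though how many of all genes tested separate in this way was not worked out. The induced level was 148.7% of the uninduced one in c1, with 95% limits of 142.9% and 154.8%. In c2 it was 134.3% (limits 129.6% and 139.1%), and in NT 165.6% (limits 158.3% and 173.2%). These limits rest on the exact binomial (Clopper-Pearson) method and cover counting error only, as do the others given here. On the log2 scale the c1 pair responded by 0.57, the c2 pair by 0.42 and the NT pair by 0.73. Ordered by the smallest of the 3 responses, LMNB2 was number 80 of the 14074 genes tested. In bulk RNA, a change in the share of cells that express a gene and a change in RNA per cell cannot be told apart.

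**Figure D1:**
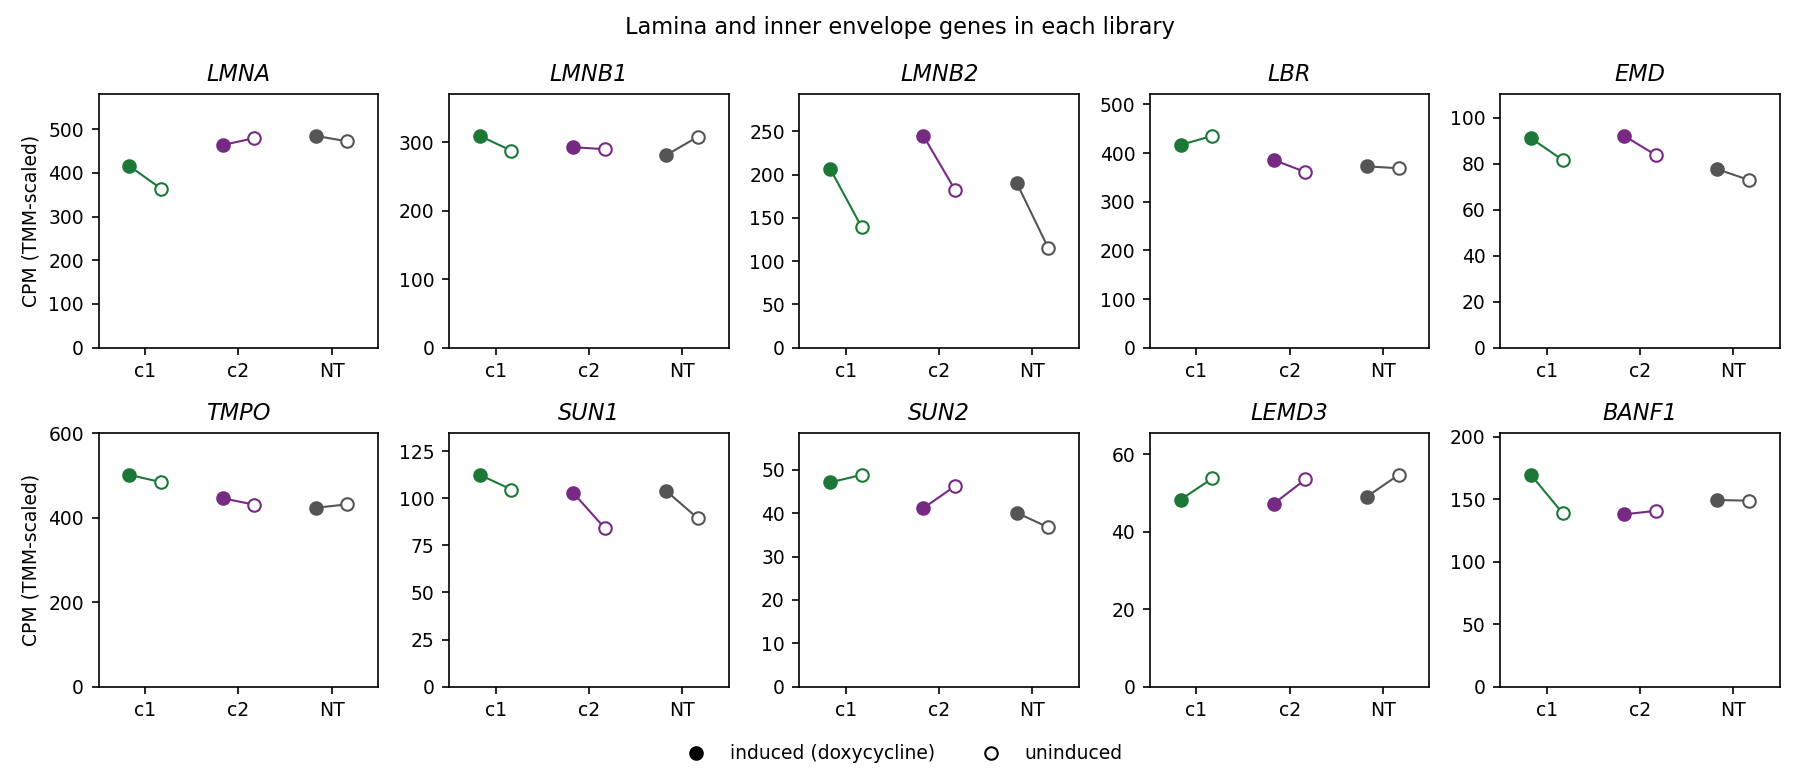
Level of each of the 10 genes in the 6 libraries, in CPM scaled by TMM (vertical axes, from 0), with the induced library (filled) left of the uninduced library (open) of the same clone and a line joining them. Of the 10 genes, LMNB2 alone has all 3 induced libraries (190.7 to 244.7 CPM) above all 3 uninduced libraries (115.2 to 182.3 CPM), and LEMD3 alone has them all below. The share of all genes tested that separate in this way was not worked out.

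The LMNB2 difference did not pass a test that ignores which libraries share a clone. Across all 3 clones, edgeR's quasi-likelihood test gave 0.56 ± 0.18 (log2, SE) with an adjusted p of 1, and called 0 of 14074 genes, with 217 at an unadjusted p under 0.05 and 6 called by DESeq2. The induced and uninduced libraries of a clone share that clone, and once the clone entered as a replicate block the test called 18 genes, 0.128% of those tested. LMNB2 rose by 0.57 ± 0.06 in it, with an edgeR adjusted p of 0.0365. It was 1 of 3 genes (0.0213%) called higher, beside HSPG2 (0.39) and FAM117A (0.48), which are named because the count is small. That count depended on the fit. Blocked DESeq2, chosen after seeing the data, called 41 genes higher, and blocked edgeR with an offset for transcript length called 0.

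Restricted to the CDAN1 shRNA clones, the blocked edgeR test called 141 genes (1%), among them LMNB2 at 0.50 ± 0.07 (adjusted p = 0.00999). The unblocked fit gave 0.49 ± 0.17 and called 0 genes, with 207 at an unadjusted p under 0.05 and 2 called by DESeq2. The blocked call across all clones ended without either library of c1, where the adjusted p was 0.109 (without uninduced c1) and 0.104 (without induced c1) in edgeR, while the difference stayed at 0.57. It also ended with an offset for transcript length, where the edgeR adjusted p was 0.188 at a difference of 0.49 across all clones and 0.356 at 0.39 in the CDAN1 shRNA clones.

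The NT pair, which carries no CDAN1 hairpin, had the highest LMNB2 response of the 3 clones. The mean response of c1 and c2 minus that of NT was −0.23 ± 0.11 in the blocked fit (edgeR adjusted p = 1). Unblocked it was −0.24, and it ranged from −0.42 without uninduced c1 and −0.36 without induced c2 to −0.12 without induced c1 and −0.01 without uninduced c2, with no call in any. Each omission breaks a pair, so the gap in level between c1 and c2 (138.9 and 182.3 CPM uninduced) enters these unblocked values. In the comparison the series was built for, both induced CDAN1 shRNA libraries lay above all 4 controls for LMNB2, and the difference of 0.53 ± 0.21 had an unadjusted p of 0.0416 and an edgeR adjusted p of 1. One of the 4 controls there is induced NT, at 190.7 CPM, which is the highest control.

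One transcript carried the gene. LMNB2-201, the full coding transcript of 620 codons, held 97.5% to 99.8% of LMNB2 reads. It stood at 50.1 TPM in induced c1, 61.9 in induced c2 and 46.8 in induced NT, against 33.8 in uninduced c1, 45.5 in uninduced c2 and 27.4 in uninduced NT. A non-coding LMNB2 transcript of 885 bases was at 6.73 TPM in uninduced c2 and at 0 in the other 5 libraries, and its length enters the average behind the length offset. TIMM13 overlaps LMNB2 on the same strand in GENCODE 29, and it responded by 0.23 in the c1 pair, −0.08 in the c2 pair and −0.04 in the NT pair.

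LMNB2 also took a larger part of the lamin transcripts after induction. It made up 13.0% of summed lamin TPM in induced c1, 14.3% in induced c2 and 11.5% in induced NT, against 10.3% in uninduced c1, 12.3% in uninduced c2 and 7.38% in uninduced NT. The ratio of LMNB1 to LMNB2 in TPM was 2.58 in induced c1, 2.19 in induced c2 and 2.53 in induced NT, against 3.55 in uninduced c1, 2.51 in uninduced c2 and 4.41 in uninduced NT. The share was higher and the ratio lower after induction in all 3 pairs, though the induced and uninduced ranges of each overlapped. The LMNB2 total of uninduced c2 behind both includes the non-coding transcript, at 6.73 TPM there and at 0 elsewhere. The coding LMNB2-201 alone was at 46.8 to 61.9 TPM induced and 27.4 to 45.5 TPM uninduced, ranges that do not overlap.

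LMNB1 (ENSG00000113368, chromosome 5) stood at 309.4 CPM in induced c1, 292.9 in induced c2 and 281.2 in induced NT, against 287.6 in uninduced c1, 289.9 in uninduced c2 and 308.1 in uninduced NT. It was the steadiest of the 10 genes, with a range of 0.14 on the log2 scale over the 6 libraries, against 1.09 for LMNB2. Its groups overlapped, and no comparison called it.

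LMNA (ENSG00000160789, chromosome 1, 156082573 to 156140089, plus strand, GRCh38) encodes lamins A and C. It stood at 415.4 CPM in induced c1, 463.5 in induced c2 and 484.5 in induced NT, against 363.7 in uninduced c1, 479.3 in uninduced c2 and 471.9 in uninduced NT. Both c1 libraries were below the other 4. Induced c1 was at 114.2% of uninduced c1 (111.3 to 117.3), induced c2 at 96.7% of uninduced c2 (94.5 to 99.0) and induced NT at 102.7% of uninduced NT (100.2 to 105.2), so the pairs did not share a direction.

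**Figure D2:**
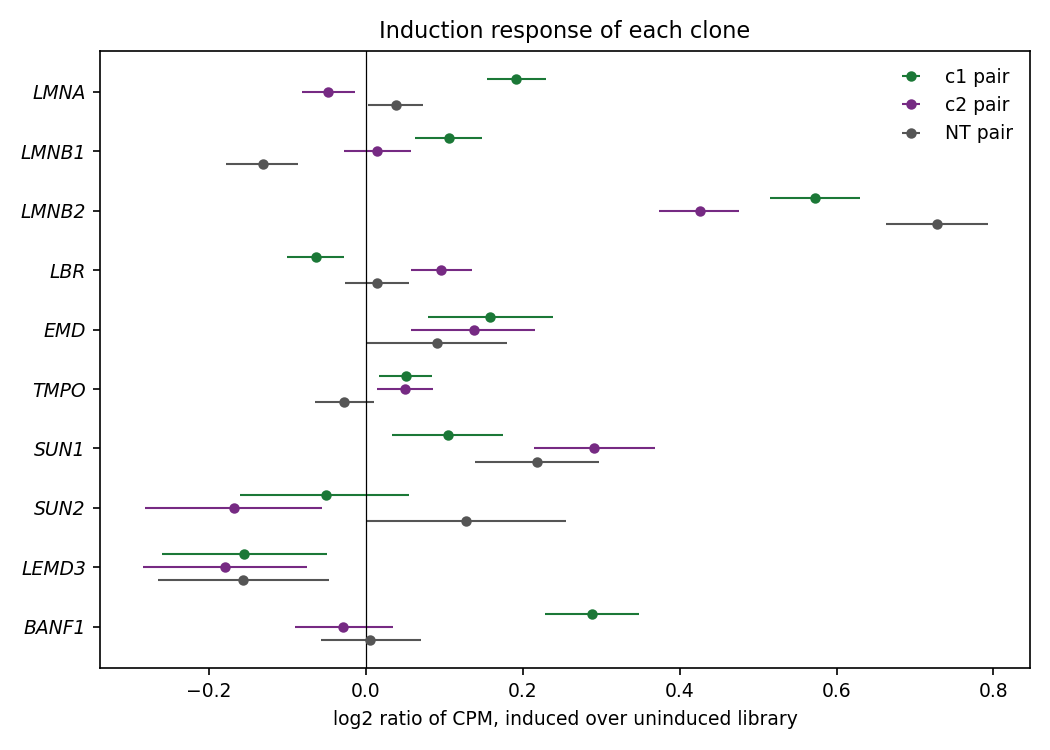
Induction response of each gene, as the log2 ratio of CPM in the induced over the uninduced library of c1, c2 and NT (horizontal axis), with 95% intervals for counting error only. LMNB2 lies to the right of 0 in all 3 clones (0.42 to 0.73), EMD and SUN1 do so by less, and LEMD3 lies to the left (−0.18 to −0.15).

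Lamin A transcripts, chiefly LMNA-206 (664 codons), took a smaller share of LMNA coding TPM in the induced library of each clone. This counts LMNA-202 as not lamin A by its GENCODE 29 sequence, though its sequence in the authors' index is not known. The share was 26.8% in induced c1, 32.3% in induced c2 and 27.4% in induced NT, against 31.9% in uninduced c1, 35.5% in uninduced c2 and 30.8% in uninduced NT. The pairs differed by −5.09, −3.27 and −3.48 percentage points in c1, c2 and NT, while the induced and uninduced ranges overlapped. Set against all 4 controls, the induced CDAN1 shRNA libraries averaged 29.5% ± 3.82 (SD, n = 2) and the controls 31.4% ± 3.37 (SD, n = 4). That difference of −1.87 points had a two-sided exact permutation p of 0.6, where 0.0667 is the smallest the 15 arrangements can give, and it turned to 0.84 points without induced c1.

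The remaining LMNA reads were assigned almost wholly to LMNA-202, at 119.9 to 176.8 TPM. That transcript is 2069 bases long in the deposited files and 1713 in GENCODE 29, so its sequence in the authors' index is not known here and it is not called lamin C. The annotated lamin C transcript, LMNA-207, held at most 0.38 TPM, and the shorter prelamin form LMNA-205 was listed at 0 in all 6 libraries. LMNA-206 stood at 98.1%, 87.5% and 95.1% of its uninduced TPM in c1, c2 and NT, and LMNA-202 at 126.8%, 101.9% and 113.2%.

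**Figure D3:**
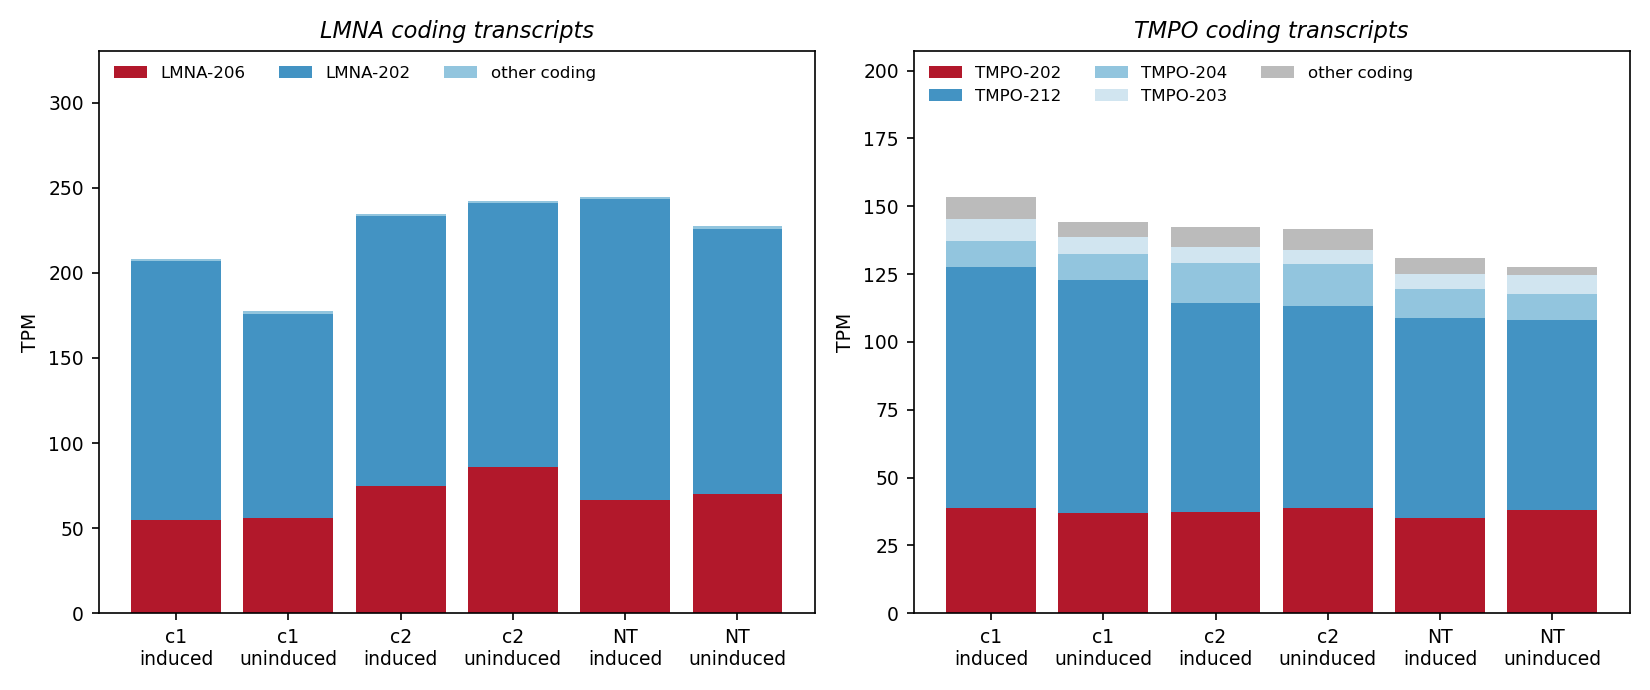
TPM of the coding transcripts of LMNA (left) and TMPO (right) in the 6 libraries (stacked bars, vertical axes from 0), with each induced library left of its uninduced one. Lamin A transcripts, chiefly LMNA-206 (red), hold 26.8% to 35.5% of LMNA coding TPM where LMNA-202 is counted as not lamin A. TMPO-202 (LAP2 alpha, red) holds 25.2% to 29.8% of TMPO coding TPM.

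Among the LEM-domain proteins, which bind the chromatin protein BAF, EMD was somewhat higher and LEMD3 somewhat lower after induction in every clone, by amounts that no test of induction called. EMD (ENSG00000102119, chromosome X), which encodes emerin, stood at 91.11 CPM in induced c1, 92.13 in induced c2 and 77.64 in induced NT, against 81.63 in uninduced c1, 83.79 in uninduced c2 and 72.92 in uninduced NT. Both induced CDAN1 shRNA libraries exceeded all 4 controls, by 0.21 ± 0.08 (log2, SE, unadjusted p = 0.0393, edgeR adjusted p = 1). The non-coding EMD-208 differed more between states than the coding EMD-202. EMD-208 was at 133.9%, 114.4% and 129.3% of its uninduced TPM in c1, c2 and NT, and EMD-202 at 100%, 101.5% and 104.6%.

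LEMD3 (ENSG00000174106, chromosome 12) encodes MAN1, which also binds SMAD proteins. It stood at 48.28 CPM in induced c1, 47.24 in induced c2 and 49.06 in induced NT, against 53.76 in uninduced c1, 53.5 in uninduced c2 and 54.68 in uninduced NT. The induced libraries were all below the uninduced ones, at 89.8%, 88.3% and 89.7% of them in c1, c2 and NT. The share of all genes tested that separate like this was not worked out. Across all clones the blocked difference was −0.16 ± 0.06 (edgeR adjusted p = 0.303).

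The point at which the TMPO transcripts of LAP2 alpha and of the membrane-bound LAP2 beta part is shown because the LAP2 alpha share below turns on it. Each line gives the coding strand 5′ to 3′ from GENCODE 29, with the shared bases in lower case and the bases after the point of parting in capitals.
LAP2 alpha (TMPO-202): gtgacaatgaagaagGAAAGAAGAAAGAAC
LAP2 beta (TMPO-212): gtgacaatgaagaagACTCTAAAATAGAGC
The coding sequences of TMPO-202 (LAP2 alpha, 694 codons) and TMPO-212 (LAP2 beta, 454 codons) share their first 565 bases.

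TMPO (ENSG00000120802, chromosome 12) encodes the LAP2 proteins. It stood at 501.3 CPM in induced c1, 445.9 in induced c2 and 423.3 in induced NT, against 484.0 in uninduced c1, 430.8 in uninduced c2 and 431.6 in uninduced NT. Both c1 libraries were above the other 4. LAP2 alpha, the nucleoplasmic partner of lamin A, took 25.2% of TMPO coding TPM in induced c1, 26.1% in induced c2 and 26.9% in induced NT, against 25.7% in uninduced c1, 27.3% in uninduced c2 and 29.8% in uninduced NT. The induced CDAN1 shRNA libraries averaged 25.7% ± 0.641 (SD, n = 2) and the controls 27.4% ± 1.74 (SD, n = 4), a difference of −1.76 points with a two-sided exact permutation p of 0.267. Without uninduced NT the difference was −0.97 points.

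BANF1 (ENSG00000175334, chromosome 11) encodes BAF, which bridges DNA and the LEM-domain proteins. It stood at 169.6 CPM in induced c1, 138.0 in induced c2 and 149.5 in induced NT, against 138.9 in uninduced c1, 140.8 in uninduced c2 and 148.9 in uninduced NT. Induced c1 alone stood out, at 122.1% of uninduced c1 (117.1 to 127.3), with induced c2 at 98% (93.9 to 102.4) and induced NT at 100.4% (96.1 to 105) of their uninduced libraries. The 5 BANF1 pseudogenes in the files were all listed at 0.

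The lamin B receptor gene LBR (ENSG00000143815, chromosome 1) encodes a membrane protein that tethers heterochromatin and also works as a sterol reductase. It stood at 416.8 CPM in induced c1, 386.0 in induced c2 and 372.8 in induced NT, against 435.5 in uninduced c1, 361.0 in uninduced c2 and 368.9 in uninduced NT. Both c1 libraries were above the other 4, and the induced library was the higher of the pair in c2 and NT and the lower in c1. The ratio of LMNA to LBR in TPM was 1.37 in induced c1, 1.56 in induced c2 and 1.77 in induced NT, against 1.14 in uninduced c1, 1.71 in uninduced c2 and 1.78 in uninduced NT.

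SUN1 and SUN2 encode the inner membrane part of the bridge that couples the lamina to the cytoskeleton. SUN1 (ENSG00000164828, chromosome 7) stood at 112.4 CPM in induced c1, 103.0 in induced c2 and 103.9 in induced NT, against 104.6 in uninduced c1, 84.17 in uninduced c2 and 89.31 in uninduced NT. It was higher in the induced library of each clone, though uninduced c1 lay above 2 of the 3 induced libraries, and the blocked difference across all clones was 0.20 ± 0.05 (edgeR adjusted p = 0.202). SUN2 (ENSG00000100242, chromosome 22) stood at 47.12 CPM in induced c1, 41.17 in induced c2 and 40.13 in induced NT, against 48.85 in uninduced c1, 46.27 in uninduced c2 and 36.74 in uninduced NT.

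SUN2 was lower after induction in c2, at 89% of its uninduced level (82.3 to 96.2). It was higher in NT, at 109.2% (100.1 to 119.3). In c1 it was at 96.5% (89.5 to 103.9), a difference within counting error. The ratio of SUN1 to SUN2 in TPM was 2.46 in induced c1, 2.43 in induced c2 and 2.14 in induced NT, against 1.60 in uninduced c1, 1.76 in uninduced c2 and 1.99 in uninduced NT, so in TPM it was higher in all 3 induced libraries. In c1 the size of this rise, though not its direction, rests on the scale. SUN2 there was at 24.2 TPM induced and 31.2 uninduced, but at 47.12 and 48.85 CPM. The retained intron transcript SUN2-213 stood at 5.8% of its uninduced TPM in c1. SUN1 reads were spread over 12 described transcripts and SUN2 reads over 6, and overlapping genes on either strand make both totals less certain.

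Counted together, 4 of the 10 genes responded with 1 sign in all 3 clones (LMNB2, EMD and SUN1 upward, LEMD3 downward), where 37.8% of all genes tested did, 17.8% upward and 20% downward. Both induced CDAN1 shRNA libraries lay outside the range of the 4 controls for 3 of the 10 (LMNB2 and EMD above, LEMD3 below), where 9.56% of all genes did, 4.37% above and 5.19% below. In the comparison of knockdown with controls, edgeR called 0 of the 14074 genes (0%), with 322 at an unadjusted p under 0.05 and 22 called by DESeq2. With the clone as a block edgeR called 6 (0.0426%), none of them among the 10. In that blocked fit NT adds only to the spread, so its differences are those of induced against uninduced c1 and c2. LMNB2 came to 0.498 in both fits. The clones' response minus the NT response had 0 unblocked calls in edgeR, with 79 at an unadjusted p under 0.05 and 5 called by DESeq2, and 20 calls (0.142%) in the blocked fit, again none among the 10. The median difference between knockdown and controls was 0.08 for the 10 genes and −0.001 for all genes tested (log2).

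Between clones, LMNB2 was highest in c2 and LMNA lowest in c1, while TMPO and LBR were highest in c1. With doxycycline as a term, edgeR called 5 of the 10 genes between c1 and NT, where 27.8% of all genes were called, 2 between c2 and NT (21.1% of all genes) and 5 between c1 and c2 (26.8%). These comparisons share libraries, so their calls do not count separately. The megakaryocyte markers, which encode platelet lineage proteins, were highest in the c2 libraries and lowest in the c1 libraries, at sums of 97.59 and 111.41 TPM in induced and uninduced c2, against 7.05 and 9.10 TPM in induced and uninduced c1, and their part in the differences between clones was not tested.

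LMNB2 was higher in c2 than in NT by 0.51 ± 0.07 (log2, SE, edgeR adjusted p = 0.00313), and this was the call that leaving out any of the 6 libraries did not end (0.39 to 0.64, adjusted p up to 0.0196). Without the doxycycline term the difference was 0.48 and the call ended (edgeR adjusted p = 0.265). LMNB2 was lower in c1 than in c2, with a difference of −0.32 ± 0.07 (edgeR adjusted p = 0.0171), a call that ended without uninduced c1, induced c1 or uninduced c2 (adjusted p up to 0.152).

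LMNA was lower in c1 than in NT, with a difference of −0.30 ± 0.06 (edgeR adjusted p = 0.0131), and lower in c1 than in c2, with one of −0.28 ± 0.06 (adjusted p = 0.0172). The call against NT ended without uninduced NT or uninduced c1 (adjusted p up to 0.0689), and that against c2 without uninduced c1 or uninduced c2 (up to 0.169). The other calls had c1 higher: TMPO by 0.20 ± 0.05 (edgeR adjusted p = 0.0199), LBR by 0.20 ± 0.06 (0.0320), SUN2 by 0.32 ± 0.09 (0.0369) and EMD by 0.20 ± 0.06 (0.0459) over NT, and LBR by 0.19 ± 0.06 (0.0387), TMPO by 0.17 ± 0.05 (0.0405) and SUN1 by 0.22 ± 0.06 (0.0418) over c2. EMD was also higher in c2 than in NT, by 0.22 ± 0.06 (edgeR adjusted p = 0.0360).

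Each of these 8 calls ended without at least 3 of the 6 libraries taken singly. EMD between c1 and NT and TMPO between c1 and c2 ended without any 1 of the 6 (edgeR adjusted p up to 0.279 and 0.356). Over NT, LBR ended without uninduced NT, induced NT, uninduced c1 or uninduced c2 (up to 0.151), TMPO without uninduced NT, induced NT or induced c1 (up to 0.207) and SUN2 without uninduced NT, uninduced c1 or induced c1 (up to 0.268). EMD between c2 and NT ended without any of the 4 libraries of those clones (up to 0.224). Between c1 and c2, LBR ended without induced NT, uninduced c1, uninduced c2 or induced c2 (up to 0.435), and SUN1 without any library but induced c1 (up to 0.397). Only the calls of LMNA and TMPO between c1 and NT held under all 5 other settings tried (DESeq2, its size factors, no filter on low counts, the length offset and no doxycycline term).

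With the length offset, SUN2 over NT in c1 came to 0.08 and SUN1 in c1 over c2 to 0.08, and neither was called in edgeR (adjusted p = 0.709 and 0.472). The offset also ended the calls of LMNA (−0.24, edgeR adjusted p = 0.0699), LMNB2 (−0.38, 0.0562), LBR (0.14, 0.147) and TMPO (0.14, 0.180) between c1 and c2, and those of EMD over NT in c1 (0.15, 0.199) and in c2 (0.16, 0.197). DESeq2 did not call EMD over NT in c1 or c2 (adjusted p = 0.132 and 0.0765), SUN2 over NT in c1 (0.0602), or TMPO and SUN1 between c1 and c2 (0.0605 and 0.0981). Without the doxycycline term, edgeR did not call LBR or EMD between c1 and NT (adjusted p = 0.0501 and 0.142), EMD between c2 and NT (0.123), or LMNB2, LBR, TMPO and SUN1 between c1 and c2 (0.464, 0.0598, 0.0674 and 0.228). EMD between c1 and NT also ended with no filter on low counts (edgeR adjusted p = 0.0693), and TMPO between c1 and c2 with DESeq2 size factors (edgeR adjusted p = 0.0502).

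**Figure D4:**
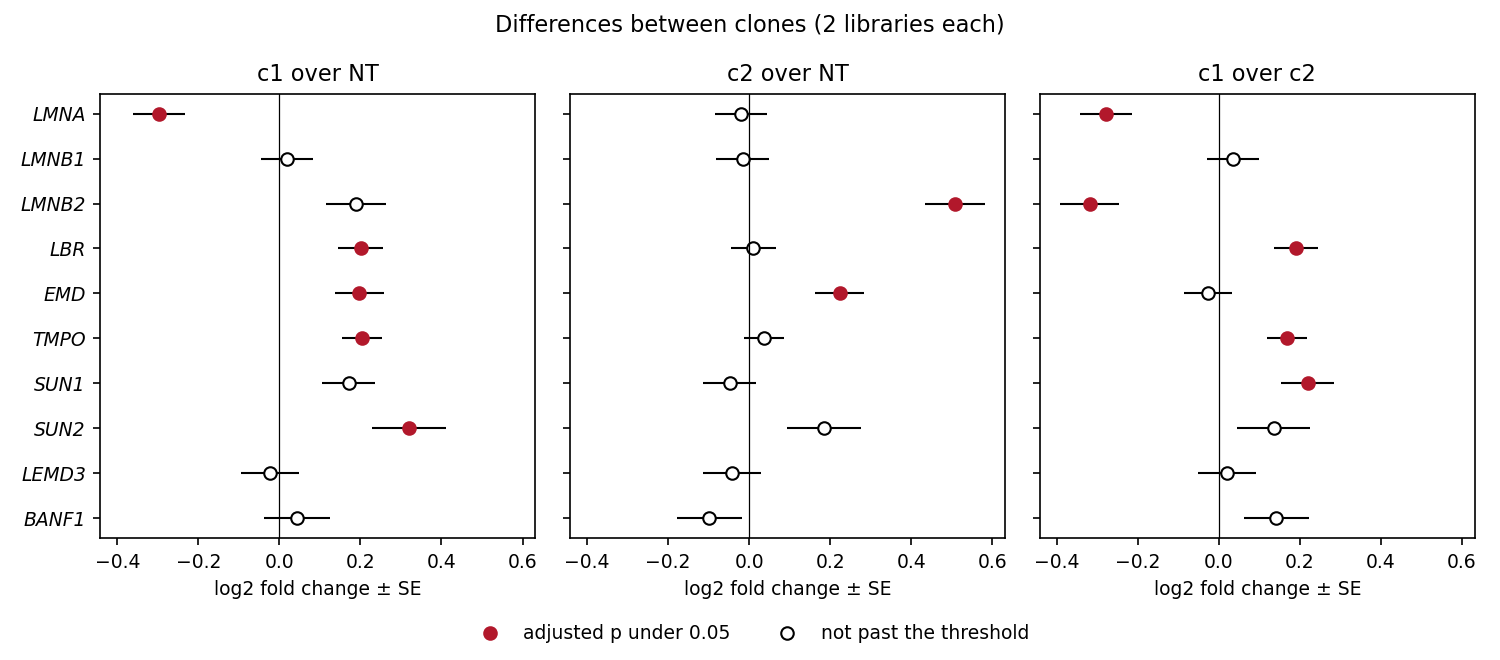
Log2 difference between clones (horizontal axes, ± SE, 2 libraries per clone) for the 10 genes, for c1 over NT, c2 over NT and c1 over c2, with filled points where the edgeR adjusted p is under 0.05. LMNB2 is highest in c2 (0.51 over NT), and LMNA is lowest in c1 (−0.30 against NT).

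Compared per length, the 10 genes spanned a wide range of levels. Mean TPM over the 6 libraries (SD, n = 6) was 228.9 ± 26.4 for LMNA, 221.4 ± 14.5 for BANF1, 169.9 ± 14.6 for TMPO, 148.6 ± 10.3 for LBR and 130.9 ± 6.07 for LMNB1. It was 106.4 ± 10.6 for EMD, 54.4 ± 5.33 for SUN1, 47.1 ± 12.7 for LMNB2, 26.7 ± 2.80 for SUN2 and 13.5 ± 1.01 for LEMD3. Neighbours whose ranges overlapped were LMNA and BANF1, TMPO and LBR, LBR and LMNB1, SUN1 and LMNB2, and LMNB2 and SUN2. TMPO, LBR and LMNB2 were still the higher of their pairs in all 6 libraries, whereas LMNA exceeded BANF1, and SUN1 exceeded LMNB2, in 4 of 6.

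Other genes of the envelope did not pass the test after induction. None of the 19 tested envelope partners (nesprins, torsins, lamin processing enzymes), 16 envelope remodelling genes or 28 nucleoporins was called by edgeR in the 4 comparisons of knockdown or induction, with or without the block. Of all genes, edgeR called 0% in each comparison without the block and 0.0426% to 1% with it, so lists of this size would hold few or no calls. Among the partners, SYNE1, which encodes nesprin-1, was at 1.89 CPM in induced c1, 2.22 in induced c2 and 2.25 in induced NT, against 3.57 in uninduced c1, 3.50 in uninduced c2 and 2.83 in uninduced NT. It was lower in the induced library of all 3 pairs, and the c1 and c2 pairs differed by −0.78 ± 0.25 (blocked edgeR adjusted p = 0.226). Among nucleoporins, AHCTF1, which encodes the pore assembly factor ELYS, differed by −0.40 ± 0.10 (adjusted p = 0.108) and NUP62 by 0.39 ± 0.10 (adjusted p = 0.114) in the same blocked edgeR fit. The AHCTF1 response was −0.19 in the c1 pair, −0.59 in the c2 pair and 0.19 in the NT pair, and that of NUP62 was 0.60 in c1, 0.17 in c2 and 0.08 in NT. AHCTF1 stood at 114.5 CPM in uninduced c2 and at 65.8 to 88.59 CPM in the other libraries. NUP62 was at 124 CPM in induced c1 and 104 in induced c2, against 81.95 and 92.19 uninduced. All of these were below induced and uninduced NT (143.8 and 135.7 CPM).

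Between clones, edgeR called 2 of 19 partners, 3 of 16 remodelling genes and 10 of 28 nucleoporins in c1 over NT (27.8% of all genes), 1, 1 and 5 in c2 over NT (21.1%), and 1, 1 and 5 in c1 over c2 (26.8%). As shares these were 10.5%, 18.8% and 35.7%, then 5.26%, 6.25% and 17.9% in each of the other comparisons, and all but the nucleoporins of c1 over NT were below the share of all genes. Over NT, c1 had 2 partners higher and 0 lower, the farnesyltransferase subunit genes FNTA (0.52 ± 0.07) and FNTB (0.45 ± 0.09). It had 2 remodelling genes higher, among them VRK1, the kinase that phosphorylates BAF (0.26 ± 0.06), and 1 lower. Of the nucleoporins 7 were higher and 3 lower, with NUP85 at −0.64 ± 0.07. Over NT, c2 had 0 partners higher and 1 lower (PRR14, −0.27 ± 0.07), and 1 remodelling gene higher and 0 lower (VRK1, 0.22 ± 0.06). It had 3 nucleoporins higher and 2 lower, with POM121 at 0.62 ± 0.07 and NUP85 at −0.50 ± 0.07. VRK1 and NUP85 were thus called in both CDAN1 shRNA clones, against the same NT libraries. Over c2, c1 had 1 partner higher and 0 lower (FNTA, 0.55 ± 0.07), 1 remodelling gene higher and 0 lower (CHMP7, an ESCRT adaptor of the envelope, 0.27 ± 0.08), and 3 nucleoporins higher and 2 lower.

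Of the cell cycle lists, edgeR called 0 of 17 S phase and 0 of 19 G2/M genes in the 4 comparisons of knockdown or induction. The share of all genes called there was 0% without the block and 0.0426% to 1% with it. The G2/M genes had a median response of −0.15 in the c1 pair, 0.02 in the c2 pair and −0.05 in the NT pair, and their part in the responses above was not tested. Between clones, edgeR called 1 S phase gene higher and 3 lower in c1 over NT (23.5%), 2 higher and 0 lower in c2 over NT (11.8%), and 1 higher and 4 lower in c1 over c2 (29.4%). The G2/M calls in that order were 5 higher and 2 lower (36.8%), 2 higher and 1 lower (15.8%), and 5 higher and 4 lower (47.4%). The shares of all genes called were 27.8%, 21.1% and 26.8%. The part of the cell cycle genes in the differences of the 10 genes between clones was not tested.

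The genes whose log2 CPM followed LMNB2 most closely over the 6 libraries were TXNDC5 (Pearson r = 0.986), ALOX12P2 (0.983) and TCOF1 (0.981). Those closest to SUN1 were HSPB11 (0.987), TIMELESS (0.985) and SPEG (0.983), and those closest to LMNA were AC131392.1 (0.995), ACTN1 (0.993) and ATP5MC2 (0.990). These values describe 6 libraries that share clones and carry no test.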

How the data were processed

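RNA sequencing libraries of 6 K562 cultures were grouped by sample title. Reads had been quantified with Salmon 1.5.2 against GRCh37 (hg19), per the submitters' processing notes. For annotation, trimming and strand: not given in the sources used here. Each deposited table lists transcripts with their estimated counts, TPM and, as another measure, effective lengths, per the file headers. Transcripts were named by GENCODE 29 (GRCh38): 151037 of 167268 (90.3%) matched by identifier, and the others, with 6.23% to 6.5% of a library's reads, were left out. Of 136 transcripts of the 10 genes, 132 had the same length in both. Coordinates are GRCh38 and were not used to read the files.

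Estimated counts were summed per gene and rounded. Genes passed edgeR's filterByExpr with a minimum count of 10 and a smallest group of 2. TMM factors scaled the CPM, to which a prior count of 2 was added for logs. Tests used edgeR 4.0.16 (quasi-likelihood, two-sided, Benjamini-Hochberg adjustment over all 14074 genes, threshold 0.05) in R 4.3.3, with limma 3.58.1. DESeq2 1.42.0, its size factors, no filter, a transcript length offset, the clone as a replicate block and leaving out each library were alternatives. Isoform shares were compared by exact permutation over libraries. The fits were tested on simulated data, where the blocked fits and those between clones made a larger share of false calls than the threshold of 0.05 sets, most of all the blocked fit of induced against uninduced CDAN1 shRNA clones, which bears on the LMNB2 calls.

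Each clone gave both of its libraries, so the clone pairs them: deviations from the means of the 3 induced and the 3 uninduced libraries correlated within clones, with r of 0.68 (c1), 0.741 (c2) and 0.608 (NT). The members and lists were chosen with earlier results of these data known. Named genes are the 10 genes and CDAN1, up to 4 per list (those called, otherwise those of smallest p), and the 3 closest in pattern to each of the 3 genes of widest log2 range. Without a stated strand, reads of overlapping genes are uncertain. The sequences of the LMNA transcripts are not reported here.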

Additional observations from a re-analysis of the deposited data

Results flagged for a closer look

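Uninduced c1 stood apart from the other 3 controls (uninduced c2, induced NT and uninduced NT) for 3 of the 10 genes. It was the lowest control for LMNA, at 364 CPM, and the highest for LBR, at 436 CPM, and for TMPO, at 484 CPM. In each case its gap to the nearest control exceeded the critical share of the range in Dixon's test for 4 libraries at the 95% level. Chance flags about 1 in 20 groups of like libraries, but these 4 differ in clone and doxycycline state. The share of all genes flagged in this way was not worked out, and edgeR called 27.8% of all genes between c1 and NT. Induced c1 lay on the same side of the other 4 libraries for all 3 genes, at 415.4 CPM for LMNA, 416.8 for LBR and 501.3 for TMPO.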

How the results depend on the processing

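The 10 genes were at 36.74 CPM or more in every library, and each clone and state had 1 library. Without the block, edgeR called 0 genes in each comparison of knockdown or induction, against DESeq2 counts of 22 for knockdown and controls, 2 for the induced and uninduced CDAN1 shRNA clones, 5 for the clones' response minus that of NT and 6 across all clones. Once the replicate block held the clone, edgeR called 6, 141, 20 and 18 genes in that order. The blocked fit of knockdown and controls takes its differences from the c1 and c2 pairs alone. With doxycycline as a further term it becomes the blocked fit of the clones' response minus that of NT. It then gave the same 20 calls, and the LMNB2 difference turned to −0.229, the value of that response difference. Among the 10 genes the block changed no call but those of LMNB2 after induction. Chosen after seeing the data, blocked DESeq2 called 69 genes in the CDAN1 shRNA clones and 143 across all clones, LMNB2 in both (adjusted p = 7.28e-04 and 2.12e-11), and the blocked fit with a length offset called 0 in both (1312 and 1470 at an unadjusted p under 0.05). Across all clones, leaving out 1 library gave 0 to 166 calls over the unblocked and blocked fits, with 3 calls in the blocked fit without either c1 library, 78 and 79 without uninduced and induced c2, and 108 and 166 without uninduced and induced NT. The length offset gave 2369 calls between c1 and NT, 1792 between c2 and NT and 2312 between c1 and c2, where the reported fits gave 3918, 2965 and 3766, and leaving out 1 library gave 2217 to 3654, 1420 to 3497 and 1972 to 3953. The difference in lamin A share ranged from −4.57 to 0.838 points over the libraries left out, and that in LAP2 alpha share from −2.35 to −0.971 points. Of 846 alternative values over 77 results (the 10 genes and CDAN1 in 7 comparisons), 65 changed sign, in 33 results. None of the 33 was called, and 32 are not given singly in the text, with sizes of at most 0.184 as fitted and 0.237 after the change of sign. The causes were not tested.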
